A study of Mus musculus with 6 samples.

Results

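Cytosolic ribosomal protein genes were followed in RNA sequencing of mouse hearts at day 14 after myocardial infarction. The members were all genes whose symbol is Rpl or Rps with a number (and at most a final a, l or x), together with Rplp0, Rplp1, Rplp2 and Rpsa, with at least 10 reads summed over the 6 libraries. This rule gave 81 of the 54532 genes in the count table, 49 of the large and 32 of the small ribosomal subunit. Another 2 matching symbols, Rpl32l with 3 reads and Rpl10l with 0 reads, fell below the limit. Of the 81 members 79 are annotated as protein coding, while Rpl6l and Rps4l are annotated as processed pseudogenes. A filter on low counts left 80 members among the 14406 genes tested. The member that did not pass, Rpl39l, had 0, 0 and 3 reads in WT and 2, 5 and 0 reads in ACKR4_KO.

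The design has 3 wild-type libraries (WT) and 3 of a knockout of ACKR4, a scavenging chemokine receptor (ACKR4_KO), all from C57BL/6 mice of 8 to 10 weeks, and the hearts of both genotypes were infarcted, so no uninjured heart is part of the comparison. How the ACKR4_KO allele was made, which region of the heart was taken, and any batch or date were not given in the sources used. Nothing beyond the replicate numbers and the numbers in the sample titles says that the libraries of a genotype come from separate animals. The p-values therefore measure the spread between these libraries, which may in part be technical. The libraries held between 9422462 and 13910358 reads. Levels are given as CPM, the reads of a gene as a share of the scaled library size and not divided by gene length, and comparisons between genes use CPM per kilobase of mRNA. Ackr4 was at 12.8, 15.5 and 11.6 CPM in WT and at 0.323, 0.103 and 1.05 CPM in ACKR4_KO, so the genotype labels and the targeted gene pointed the same way in all 6 libraries. Over 10695 other protein-coding genes, the SD of the log2 difference of a library from the median of the rest was 0.462 in ACKR4_KO replicate 2 and 0.405 in replicate 3, against 0.25 to 0.283 in the other libraries, so both stood apart. The cardiomyocyte markers were abundant, with a summed level of 35730 to 64010 CPM over 10 genes. Markers of lung epithelium summed to 236, 38.7 and 116 CPM in WT and to at most 1.83 CPM in ACKR4_KO, and those of fast skeletal muscle to 85.2 and 109.6 CPM in WT replicates 2 and 3 against at most 8.61 CPM elsewhere. Their part in the results below was not tested.

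The cytosolic ribosome translates all mRNAs from the nuclear genome. Its small subunit reads the codons, its large subunit joins the amino acids, and each subunit is a shell of many small proteins on ribosomal RNA. Ribosomal protein mRNAs are abundant, and in mammals most begin with a terminal oligopyrimidine tract, a C followed by further C and T bases, through which mTORC1 and LARP1 set their translation. In heart and skeletal muscle the large subunit protein RPL3 has a muscle paralog, RPL3L. Many ribosomal protein genes have intronless copies elsewhere in the mouse genome, left by reverse transcription of their mRNAs.

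The pyrimidine tract is a feature the symbol rule did not use, and it could be read for 59 of the 81 members in RefSeq promoter sequences on GRCm38.p6. A run of at least 8 bases that are all C or T on the gene's own strand, within 20 bases on either side of the annotated start, was found at 30 of 71 member starts (42.3%) and at 5272 of 32851 starts of all genes (16.0%). The other strand was not searched, and a run is a description of these letters, not a measured start. The following 30 bases, 12 before and 18 from the annotated start, are shown for 5 members that the results turn on, with the longest C or T run in capitals. They were chosen after the values were seen. In order, they come from a short member with a large spread, a short member with an identical copy, a member that hardly varied, a member that was lower in every ACKR4_KO library, and the muscle paralog.
Rpl38 (chr11:114668568-114668597, plus strand): ggaagcctcgTTCTTTCCCCgttctcttcg
Rps27 (chr3:90213631-90213660, minus strand): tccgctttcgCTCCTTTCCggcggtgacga
Rps24 (chr14:24490666-24490695, plus strand): gcgctggggTCCTTCCTTgcgcgttgatat
Rps12 (chr10:23787192-23787221, minus strand): cgtcatgcggccaccgccggCCTTTTCCCC
Rpl3l (chr17:24727814-24727843, plus strand): tgttctagctctgtcatttgaCCTCTggtg
In Rpl38, Rps27 and Rps24 the run spans the annotated start and is 10, 9 and 9 bases long. In Rps12 it is 11 bases long, begins past the annotated start and continues beyond the bases shown. In Rpl3l the longest run near the start has 5 bases. Rps24 and Rpl3l each have another annotated start that is not shown, with longest runs of 7 and 4 bases. The 5 do not stand for the members at large, of which 42.3% of starts had a run of at least 8 bases. Rps28, with the largest spread, has a longest run of 4 bases, and the short Rpl41 one of 3. The annotated starts of Rpl22, with the smallest spread, have longest runs of 5 and 4 bases.

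Together the members took 2.48%, 2.74% and 2.57% of all reads in WT and 2.52%, 2.29% and 2.95% in ACKR4_KO. The means were 2.60% ± 0.133 and 2.59% ± 0.332 (SD, n = 3 each), so the genotypes differed by less than the spread of either. The lowest and the highest share were both in ACKR4_KO, in replicates 2 and 3. Large subunit genes took 1.33% to 1.69% and small subunit genes 0.963% to 1.26% of reads. Mitochondrially encoded genes, which took 15.8% to 21.4% of reads, were highest in ACKR4_KO replicate 2 and were at 16.0% in ACKR4_KO replicate 3. As a share of the reads from all other genes, the members stood at 3.17% ± 0.0877 in WT and 3.18% ± 0.301 in ACKR4_KO.

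The highest levels per kilobase of mRNA in the large subunit were those of Rplp1, Rpl41, Rpl13 and Rpl36, and in the small subunit those of Rps15, Rps14, Rps2 and Rps9. Rplp1, a protein of the stalk that recruits elongation factors, had a mean of 1476 CPM per kilobase, against a lower quartile of 280.5 and an upper quartile of 538.5 over the 81 members. It was at 702, 764 and 736 CPM in WT and 705, 731 and 782 CPM in ACKR4_KO, a difference within the spread of both groups. The other stalk genes were steady as well. Rplp0, the stalk base, was at 1074, 1137 and 1068 CPM in WT and 1150, 1213 and 995 CPM in ACKR4_KO. Rplp2, the partner of Rplp1, was at 291, 336 and 286 CPM in WT and 313, 351 and 351 CPM in ACKR4_KO, with a log2 fold change of 0.15 and a standard error (SE) of 0.14. At the other end, the lowest mean levels per kilobase were those of Rpl39l (0.267), Rps10 (4.33), Rpl24 (5.34) and Rpl13a (12.8). Rpl39l, a paralog of Rpl39 known from the testis, was detected in 3 libraries. The mRNAs of Rps10, Rpl24 and Rpl13a are overlapped on the same strand, over 91.6%, 71.5% and 59.3% of their length, by another annotated gene that held 0 reads in this table, so their low counts cannot be read as low expression.

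The median member varied little in WT and more in ACKR4_KO. The smallest spread among those tested was that of Rpl22, an RNA-binding protein of the large subunit, at 213, 230 and 221 CPM in WT and 216, 223 and 214 CPM in ACKR4_KO. Its SD of log2 CPM over the 6 libraries was 0.042. Rpl5, which carries 5S ribosomal RNA into the large subunit and can bind MDM2, stayed between 391 and 437 CPM with an SD of 0.058. The small subunit genes Rps24 and Rps25, at 541 to 604 CPM and 300.1 to 336 CPM, both had an SD of 0.059. The median SD of log2 CPM over members was 0.084 in WT and 0.212 in ACKR4_KO, beside 0.143 and 0.25 over all genes tested. All genes tested include genes of lower level, and the SD was not compared at matched level. The SD was larger in ACKR4_KO for 62 of 80 members, 77.5%, beside 74.7% of all genes tested.

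The largest SD of log2 CPM over the 6 libraries belonged to Rps28, Rpl38, Rps29 and Rps27a, and for the first 3 of these it came from 1 library. That library, ACKR4_KO replicate 3, held 20 members at least 1.5-fold above the median of the other 5 libraries, 9 of them at least 2-fold above, and 3 members at least 1.5-fold below. It was the library with the highest value for 43 of 80 members, 53.8%, beside 23.8% of all genes. The share of all genes past these fold limits was not counted. The log2 difference of this library from the median of the others had quartiles of -0.098 and 0.577 over members. Over 10695 other protein-coding genes the quartiles were -0.213 and 0.197. Among the 20 were all 10 tested members whose coding sequence is shorter than 300 bases. The untested Rpl39l is as short and had 0 reads there. Rps28, a small subunit protein at the mRNA exit, was at 55.1, 41.6 and 38.0 CPM in WT and at 50.2, 44.2 and 252.5 CPM in ACKR4_KO. Rpl38, a large subunit protein known for its part in the translation of Hox mRNAs, was at 59.6, 51.7 and 53.9 CPM in WT and at 51.7, 52.8 and 278.6 CPM in ACKR4_KO. Rps29, a zinc-binding protein of the small subunit head, was at 124, 114 and 125 CPM in WT and at 106, 131 and 474 CPM in ACKR4_KO. In each of these the last library was 5.72-, 5.28- and 3.83-fold above the median of the other 5, and those 5 overlapped across genotypes. Rpl39, which lines the exit tunnel for the growing protein, was at 139 to 149 CPM in WT, at 142 and 136 CPM in ACKR4_KO replicates 1 and 2, and at 408 CPM in replicate 3. Rpl41, the smallest ribosomal protein, was at 428, 457 and 434 CPM in WT and at 403, 394 and 850.2 CPM in ACKR4_KO. The other 5, Rps21, Rps27, Rps27l, Rpl37 and Rpl37a, were 1.61- to 2.76-fold above the median of the other libraries.

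**Figure D1:**
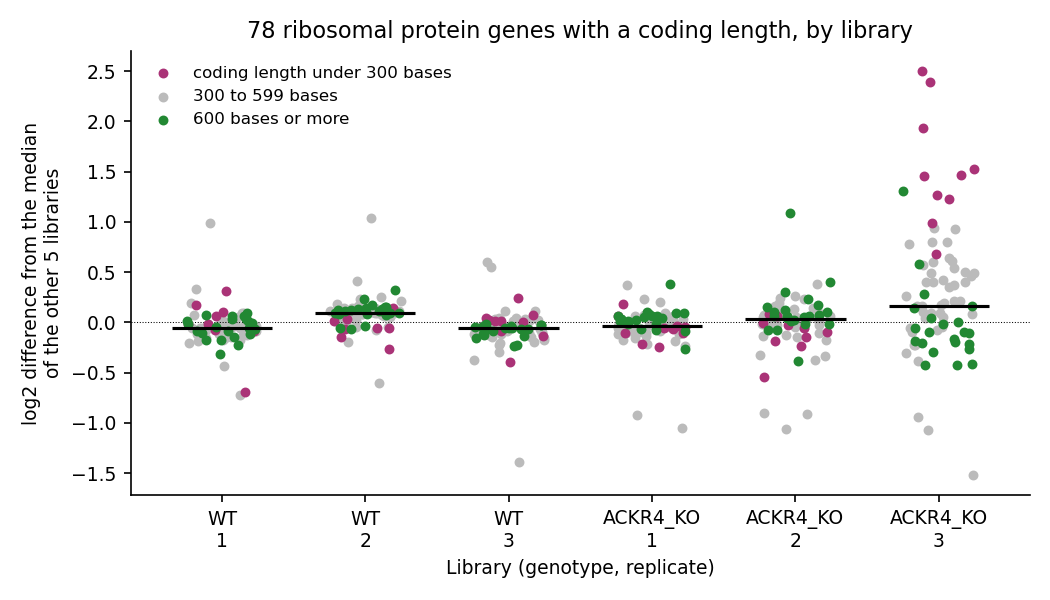
Each point is 1 of the 78 tested ribosomal protein genes with a coding length; the vertical axis is its log2 difference in a library from the median of the other 5 libraries, colours give the coding length class and black bars the median over genes. The points of ACKR4_KO replicate 3 spread widest, and its purple points, coding sequences under 300 bases, all lie above 0.68. The SD was 0.674 there, against 0.170 to 0.278 in the other libraries. It was taken over all 80 members tested, including Rpl6l and Rps4l, which are not drawn.

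The excess in this library followed the length of the coding sequence. The median log2 difference of ACKR4_KO replicate 3 from the median of the other libraries was 1.46 for the 10 members under 300 bases, 0.27 for 27 members of 300 to less than 450 bases, 0.10 for 19 members of 450 to less than 600 bases, and -0.10 for 22 members of 600 bases or more. Other protein-coding genes of the same lengths moved less, with medians of 0.31 (208 genes), 0.16, 0.06 and -0.03. The class limits were chosen after the values were seen. In the other 5 libraries the median of the members under 300 bases lay between -0.08 and 0.02. That of other genes under 300 bases lay between -0.16 (ACKR4_KO replicate 1) and 0.20 (ACKR4_KO replicate 2) there. Across members, Spearman's rho between coding length and the log2 difference was -0.61 in ACKR4_KO replicate 3 and lay between -0.21 and 0.36 in the other libraries (n = 78). With mRNA length in place of coding length it was weaker, at -0.39 in ACKR4_KO replicate 3. Over 10695 other protein-coding genes rho with coding length was -0.09 in ACKR4_KO replicate 3. In the other libraries it lay between -0.27 (WT replicate 2) and 0.28 (ACKR4_KO replicate 1) over these genes. These correlations describe genes that share a library and its depth, and genes are not independent replicates. As a share of all reads, members under 300 bases held 0.15%, 0.161% and 0.162% in WT and 0.149%, 0.127% and 0.407% in ACKR4_KO. Members of 300 bases or more held 2.33%, 2.58% and 2.40% in WT and 2.37%, 2.16% and 2.53% in ACKR4_KO. In this library the fibroblast markers summed to 13400 CPM, the highest of the 6, and the cardiomyocyte markers to 50520 CPM, the highest but 1. Whether RNA quality, library preparation or the heart itself accounts for the short members was not tested, and with 1 library these cannot be told apart.

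Several members left the length order. Rpl7a, a large subunit protein with a coding sequence of 798 bases, was at 54.9, 52.4 and 50.7 CPM in WT and at 52.2, 64.6 and 130.2 CPM in ACKR4_KO. In the opposite direction, Rpl29 was at 173 to 191 CPM in WT, at 163 and 184 CPM in ACKR4_KO replicates 1 and 2, and at 93.4 CPM in replicate 3. Rpl23a, which forms part of the docking site at the tunnel exit, was 0.475 times the median of the other libraries there, and Rpl24 0.280 times. Coding sequences of these 3 are 468 to 480 bases long. Rpl24 rests on few reads, at 2.65 to 4.84 CPM in the other 5 libraries. Summed with its near-identical copies it was at 6.92 to 10.3 CPM in those 5 and at 8.90 CPM in ACKR4_KO replicate 3, so the low value there was not seen in the sum.

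**Figure D2:**
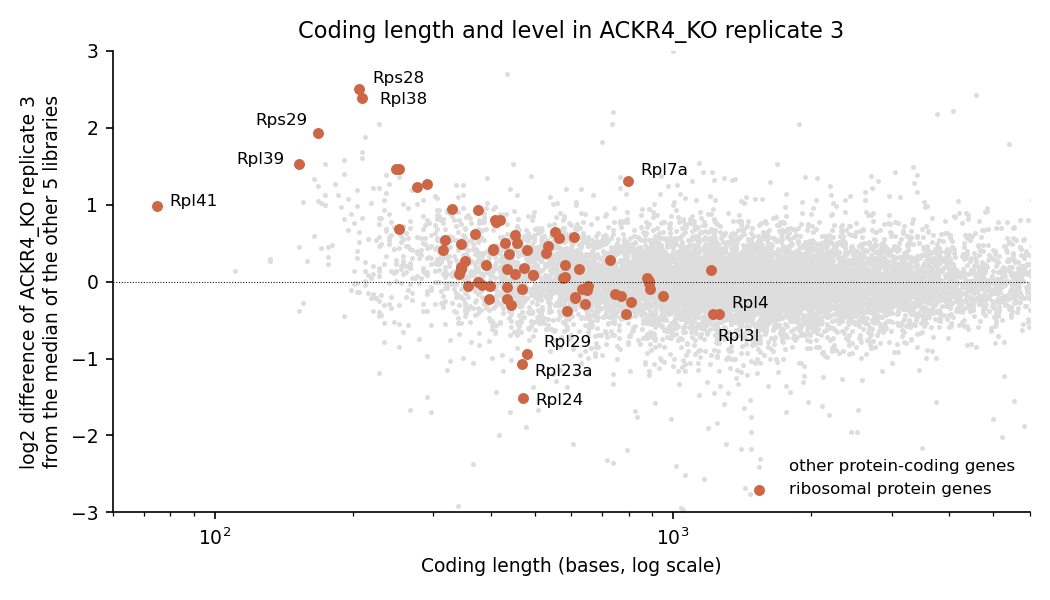
Horizontal axis, coding length in bases (log scale); vertical axis, log2 difference of ACKR4_KO replicate 3 from the median of the other 5 libraries; orange points are ribosomal protein genes and grey points other protein-coding genes, of which those beyond the axes are not drawn. Ribosomal protein genes rise toward the left, to 2.50 for Rps28, with Rpl7a above and Rpl29, Rpl23a and Rpl24 below genes of like length (own rows only, and with its copies added Rpl24 was not low).

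Counts of ribosomal protein genes also depend on how reads are divided between a gene and its near-identical copies. Of the members 66 had such a copy in the annotation, defined as a transcript on the same strand at least 98% identical over at least 80% of the coding sequence. Counting each once and leaving out members, there were 236 copies, of which 217 held reads, and 12 are annotated as protein coding. Rpl6 and the pseudogene Rpl6l, both members, are near-identical copies of each other. The copies together took 0.211% to 0.246% of reads. For 44 of the 66 members the gene's own row held over 90% of the reads summed over gene and copies, and for 5 it held under 50%. These 5 were Rpl17 (26.1%), Rpl21 (19.1%), Rpl24 (39.8%), Rpl6l (4.96%) and Rps10 (1.74%), and their values are uncertain for that reason. All reads of a copy were counted, also any outside the matching stretch. Of the 17386 copy reads of Rpl21, 11052 were of BC004004, a protein-coding gene. Its coding sequence has 1044 bases against 480 in Rpl21, so the share of Rpl21 may be understated.

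The division itself changed from library to library. Rps27, a zinc-binding small subunit protein, has a copy, Rps27rt, with an identical coding sequence. Its own row held 45.4%, 68.8% and 76.3% of the summed reads in WT and 62.0%, 47.3% and 89.1% in ACKR4_KO. Rps27 itself was at 117, 189 and 210 CPM in WT and at 177, 130 and 488 CPM in ACKR4_KO. With its copies added the values were 257, 275 and 275 CPM in WT and 285, 274 and 548 CPM in ACKR4_KO, so that the first 5 libraries lay close together and replicate 3 stayed apart. Rps29 held 72.2% to 76.5% of summed reads in the other 5 libraries and 96.2% in ACKR4_KO replicate 3, and its summed level was 147 to 176 CPM in the 5 and 493 CPM in the last. Rpl29 held 90.8% to 92.0% in the other libraries and 68.2% in ACKR4_KO replicate 3. Its copy Gm13841 was at 11.6 to 14.7 CPM in the other libraries and at 36.0 CPM in that one. Rpl17, a large subunit protein near the tunnel exit, had its own row at 148, 74.5 and 113 CPM in WT and 59.6, 54.1 and 117 CPM in ACKR4_KO. Summed with 9 copies it was at 367, 407 and 366 CPM in WT and 356, 347 and 400.1 CPM in ACKR4_KO, and its log2 fold change moved from -0.54 to -0.05.

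**Figure D3:**
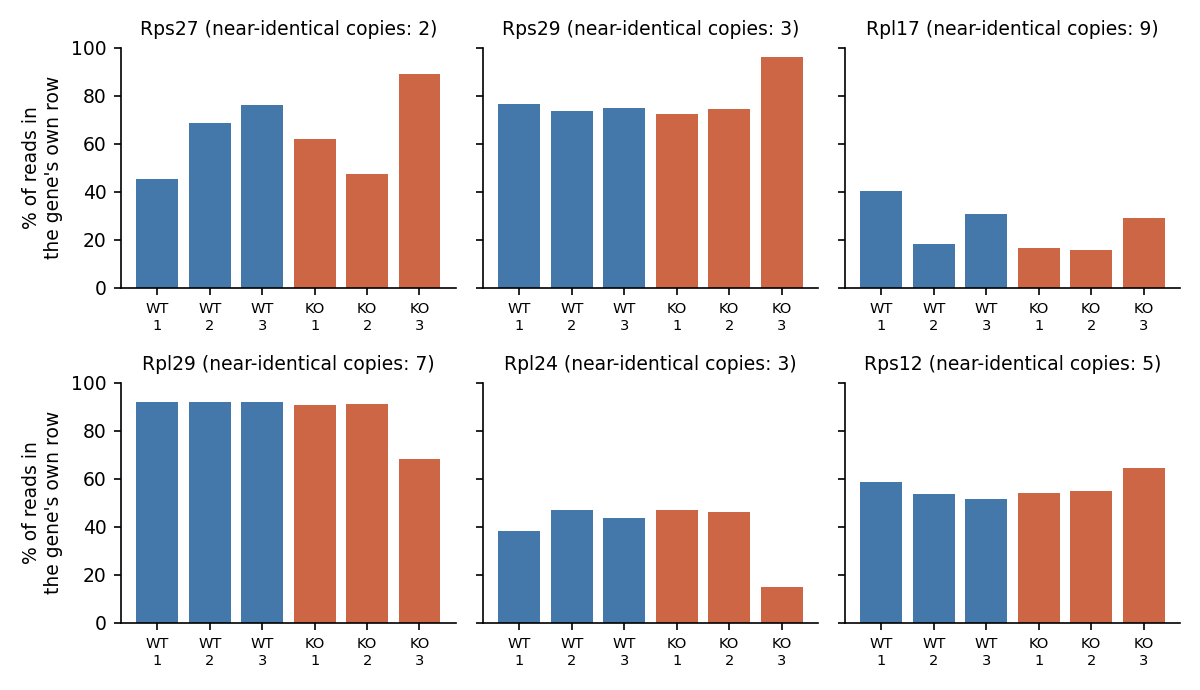
Bars give the percent of reads in a gene's own row out of the reads of the gene and its near-identical copies, for 6 ribosomal protein genes in WT (blue) and ACKR4_KO (orange, written KO) libraries. In ACKR4_KO replicate 3 the bar is highest of the 6 libraries for Rps27, Rps29 and Rps12 and lowest for Rpl29 and Rpl24, while the Rpl17 bar ranges from 15.6% to 40.3% with overlap between genotypes.

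The comparison of genotypes asks how the ribosomal protein genes of infarcted hearts stand with and without ACKR4. By edgeR's quasi-likelihood test with Benjamini-Hochberg adjustment over all 14406 genes, 0 of 80 members passed an adjusted p of 0.05, beside 0.0% of all genes tested. At an unadjusted p under 0.05 there were 2 members, Rps27a and Rps12, both lower in ACKR4_KO, or 2.5% beside 7.45% of all genes (3.64% lower and 3.81% higher). DESeq2 called 1 member, Rps27a, beside 0.271% of all genes, and had 3 members at an unadjusted p under 0.05, beside 6.75% of all genes. Limma-voom called 0, beside 0.0% of all genes, with 2 at an unadjusted p under 0.05, beside 7.51%. The groups did not overlap in 4 members, Rpl30 and Rps2 higher and Rps27a and Rps12 lower, or 5.0% beside 14.2% of all genes (6.53% higher and 7.63% lower). Of the 80 members 55 had a higher and 25 a lower fitted value in ACKR4_KO, and 52.0% of all genes had a higher one. The median log2 fold change was 0.07 over members and 0.01 over all genes. It was 0.06 in the large subunit, with 30 of 48 higher, and 0.07 in the small subunit, with 25 of 32 higher.

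This tilt rested on ACKR4_KO replicate 3. Without it, 45 members were higher and 35 lower, with 51.1% of all genes higher, and the median was 0.01 over members and 0.01 over all genes. Without ACKR4_KO replicate 2 the median over members was 0.08. Of the 10 members under 300 bases 10 had a higher fitted value with all libraries (median log2 fold change 0.63) and 2 without that library (median -0.05). For members of 600 bases or more the count went from 11 to 17 of 22. Fold changes within 0.25 of 0 on the log2 scale were seen for 58 members with all libraries and for 74 without replicate 3, beside 65.6% and 59.4% of all genes. Without that library 0 members passed the edgeR test, beside 0.00678% of all genes, and 4 had an unadjusted p under 0.05 (5.0%, beside 12.5% of all genes), Rps27a, Rps12 and Rpl17 lower and Rpl3l higher.

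**Figure D4:**
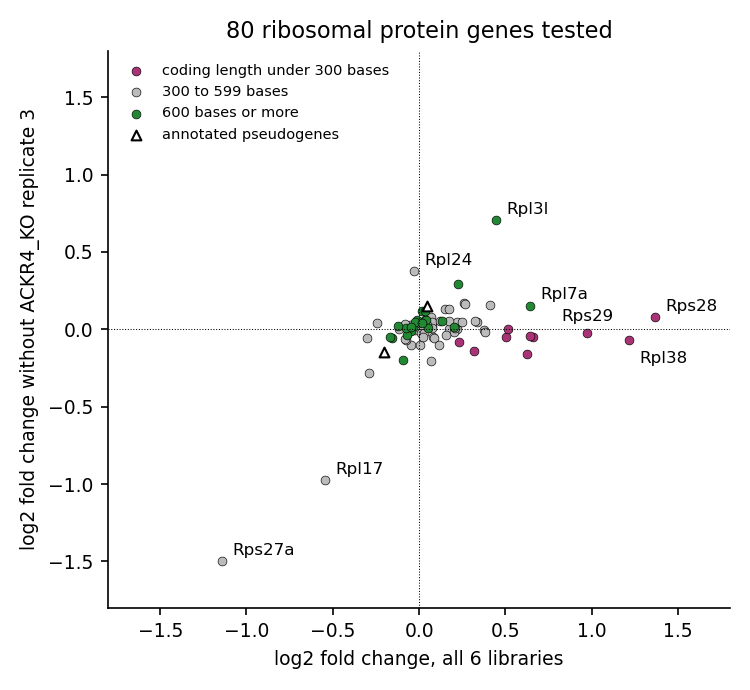
Each point is 1 of 80 ribosomal protein genes; the horizontal axis is its fitted log2 fold change, ACKR4_KO minus WT, with all 6 libraries and the vertical axis the same without ACKR4_KO replicate 3. Short members (purple) reach 1.37 on the horizontal axis and lie near 0 on the vertical axis, while Rps27a and Rpl17 are below and Rpl3l is above 0 on both.

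Rps27a had the smallest p of all members. It encodes ubiquitin fused to a small subunit protein, so each mRNA yields both, and lies at chr11:29545846-29548109 (GRCm38, minus strand). It was at 134, 260 and 184 CPM in WT and at 64.8, 71.0 and 126 CPM in ACKR4_KO. The groups did not overlap, though the gap between the lowest WT and the highest ACKR4_KO library was small beside the spread within WT. The log2 change was -1.14 (SE 0.32), and the adjusted p by edgeR's quasi-likelihood test was 0.606. By DESeq2 the adjusted p was 0.0485, and over all 15 alternatives it lay between 0.0485 and 0.999, with a log2 fold change between -1.50 and -0.87. Its own row held 93.3% to 95.2% of summed reads in WT and 77.9% to 91.5% in ACKR4_KO. With its 2 copies added the log2 change was -1.02 (SE 0.28).

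Rps12, a small subunit protein of the beak, lies at chr10:23785183-23787275 (minus strand). It was at 170.1, 175 and 161 CPM in WT and at 148, 128 and 138 CPM in ACKR4_KO, each ACKR4_KO library below each WT library. The fitted log2 change was -0.29 (SE 0.12, edgeR adjusted p = 0.661). Its own row held 51.4% to 64.6% of the reads summed with its copies. The summed level was 290.4, 328 and 313 CPM in WT and 274, 233 and 213 CPM in ACKR4_KO, again without overlap. The log2 fold change of the sum was -0.37 (SE 0.14, edgeR adjusted p = 0.656).

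Of the other members with small p, Rpl17, Rpl6l and Rpl29 were lower in the fit, with log2 fold changes of -0.54, -0.20 and -0.30. Rpl27, Rpl7a, Rps28 and Rpl36 were higher, with 0.41, 0.64, 1.37 and 0.26. None of these 7 passed, with adjusted p between 0.682 and 0.756 by edgeR's quasi-likelihood test. Rps28 had the largest fold change of all members and a standard error of 0.72. Without ACKR4_KO replicate 3 its log2 fold change was 0.08, and those of Rpl38 and Rps29 went from 1.21 and 0.97 to -0.07 and -0.03. Rpl27, a large subunit protein, was at 216, 205 and 201 CPM in WT and at 211, 250.2 and 367 CPM in ACKR4_KO. Its ACKR4_KO replicate 1 lay within the WT values and the other two libraries above them. Rps2, at the mRNA entry of the small subunit, was at 763, 825 and 834 CPM in WT and at 873, 1102 and 860 CPM in ACKR4_KO, at an edgeR adjusted p of 0.748. Rpl30, at the subunit interface, was at 218, 211 and 217 CPM in WT and at 218, 227 and 307 CPM in ACKR4_KO, the lowest of which was barely above the highest WT value.

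The paralog pairs were read next. Rpl3l, the striated muscle form of the large subunit protein RPL3, lies at chr17:24727820-24736143 (plus strand). It was at 128, 150 and 127 CPM in WT and at 167, 272 and 112 CPM in ACKR4_KO. The highest and the lowest library were both ACKR4_KO, and the log2 change of 0.44 (SE 0.29) did not pass (adjusted p 0.728, edgeR's quasi-likelihood test). Without ACKR4_KO replicate 2 it was 0.05, and without replicate 3 it was 0.71. Rpl3 was at 382, 390 and 366 CPM in WT and at 366, 294 and 406 CPM in ACKR4_KO, and its log2 fold change was -0.10 (SE 0.16, edgeR adjusted p = 0.893). Transcripts of the pair shared 0 alignments of at least 90% identity, so their reads can be told apart. Per kilobase, there were 0.329, 0.377 and 0.342 Rpl3l for each Rpl3 in WT and 0.447, 0.911 and 0.271 in ACKR4_KO. The mean log2 ratio was -1.52 ± 0.103 in WT and -1.06 ± 0.879 in ACKR4_KO (SD, n = 3 each). The difference of 0.46 had an exact two-sided permutation p of 0.6, where 3 against 3 libraries cannot go below 0.1. Without ACKR4_KO replicate 2 the difference was -0.002, and without replicate 3 it was 0.873.

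The library with the highest ratio, ACKR4_KO replicate 2, also had the highest summed level of the 10 cardiomyocyte markers, at 64010 CPM against 35730 to 50520 CPM elsewhere, and the lowest sum of the 8 fibroblast markers, at 3845 CPM against 9459 to 13400 CPM. All 10 cardiomyocyte markers had a higher fitted value in ACKR4_KO (median log2 fold change 0.40), and 7 of 8 fibroblast markers a lower one (median -0.38), with 0 called in either. In bulk tissue, fewer cells of a type and less RNA per cell cannot be told apart, and the part of cell composition in the Rpl3l values was not tested.

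**Figure D5:**
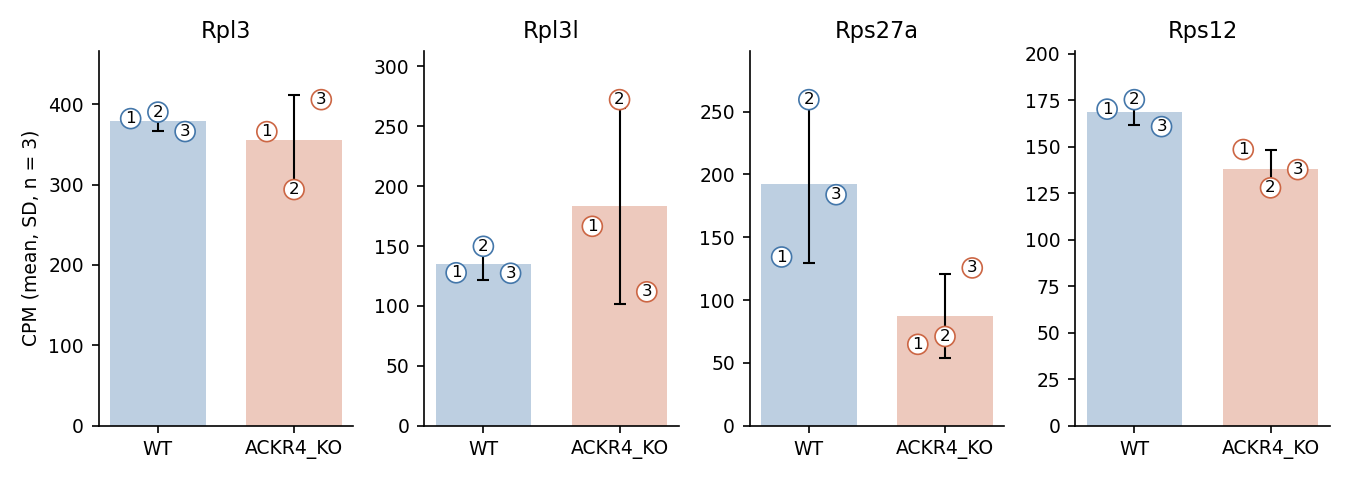
CPM of Rpl3, Rpl3l, Rps27a and Rps12 by genotype; bars are means, error bars the SD (n = 3), and the numbered circles single libraries. ACKR4_KO replicate 2 has the highest Rpl3l and the lowest Rpl3, while for Rps27a and Rps12 every ACKR4_KO circle lies below every WT circle.

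Rps27l, a paralog of Rps27 known as a target of p53, was at 59.8, 63.6 and 63.2 CPM in WT and at 54.3, 63.0 and 102 CPM in ACKR4_KO. Per kilobase of mRNA its mean level was 135 CPM, below the 633 CPM of Rps27. Both have coding sequences of 252 bases and both were highest in ACKR4_KO replicate 3. Of the pair Rpl39 and Rpl39l, the first had a mean of 304.7 CPM per kilobase and the second rested on 10 reads in all.

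Ribosomal genes outside the symbol rule were read from a list of 7. Of the 6 tested, 0 passed and 4 had a higher fitted value. Of these, 2 had an unadjusted p under 0.05, beside 3.81% of all genes in that direction. Fau, which encodes a ubiquitin-like protein fused to a small subunit protein, was at 304, 345 and 312 CPM in WT and at 322, 299 and 408 CPM in ACKR4_KO, and its highest value again lay in replicate 3. Rack1, a scaffold on the small subunit, had a log2 fold change of -0.001 and Rps3a1 one of 0.03. Rpl22l1, a paralog of Rpl22, was at 20.9, 19.96 and 19.2 CPM in WT and at 23.2, 24.2 and 28.3 CPM in ACKR4_KO, without overlap. Its log2 change was 0.33 (SE 0.13, edgeR adjusted p = 0.661).

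The genes that make and drive the ribosome were read from lists of their own, in which 0 genes passed the test. Of all genes tested, 52.0% had a higher fitted value in ACKR4_KO. Ribosome biogenesis factors had 27 of 34 genes higher in the fit (median log2 fold change 0.08) and 0 at an unadjusted p under 0.05. RNA polymerase I genes, which transcribe ribosomal RNA, had 7 of 12 higher, with a median of 0.08. Initiation factors had 14 of 23 higher (median 0.07), eIF3 subunits 9 of 13 (median 0.05) and elongation factors 6 of 8 (median 0.13). For Eef1a1, which delivers aminoacyl-tRNA, the log2 fold change was -0.29 and for its muscle and nerve paralog Eef1a2 it was 0.36. Eef1a2 was at 882, 1165 and 870 CPM in WT and at 1048, 1708 and 998 CPM in ACKR4_KO, with its highest value in replicate 2, as for Rpl3l. Of 14 further genes whose mRNAs carry a pyrimidine tract, 10 were higher, with a median of 0.14. By edgeR 1 of these 14 had an unadjusted p under 0.05 and a higher value, beside 3.81% of all genes in that direction. Among the 14, Cox7c, a subunit of cytochrome c oxidase, was at 368, 391 and 354 CPM in WT. It was at 394, 555 and 765 CPM in ACKR4_KO, highest in replicate 3, at an edgeR adjusted p of 0.661. The groups did not overlap, but the lowest ACKR4_KO value was barely above the highest WT value.

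The list of mTORC1 and 4E-BP genes, which govern translation of pyrimidine-tract mRNAs, had 15 of 17 genes higher in ACKR4_KO, beside 52.0% of all genes. The median log2 fold change was 0.12. The list holds both subunits of the complex and genes that restrain it, so the count gives no direction for its activity. At an unadjusted p under 0.05 there were 3, all higher, beside 3.81% of all genes in that direction. Mtor, the kinase, was at 50.7, 46.9 and 49.7 CPM in WT and at 55.7, 63.1 and 59.7 CPM in ACKR4_KO, which the fit put at a log2 change of 0.28 (SE 0.11). Mlst8, a subunit of the complex, was at 8.01, 6.38 and 7.30 CPM in WT and at 9.37, 9.53 and 10.1 CPM in ACKR4_KO. Castor1, an arginine sensor that restrains the complex, was at 10.0, 11.4 and 8.75 CPM in WT and at 11.6, 13.7 and 14.5 CPM in ACKR4_KO. In these 3 genes each ACKR4_KO library lay above each WT library, in Castor1 only by 11.6 against 11.4 CPM. The 3 were named for their small p, so this separation adds nothing to it. Over all genes the share was 6.53%, and the share over the whole list is not reported here. The adjusted p was 0.661, 0.664 and 0.664 by edgeR's quasi-likelihood test. The 10 cardiomyocyte markers, which all had a higher fitted value in ACKR4_KO (median 0.40), moved with this list, and their part in it was not tested.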

How the data were processed

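Gene expression was read from the deposited table of raw counts, integer reads assigned to each gene in 6 libraries. Per the submitters' processing notes, CASAVA 1.8.2, HISAT2 and HTSeq 0.6.0 were used with mm10. Which annotation release and strand setting were used is not stated there, so overlapping genes on opposite strands cannot be told apart. Lengths, coordinates and biotypes came from GENCODE M21 on GRCm38. The test was the robust quasi-likelihood test of edgeR 4.0.16 (R 4.3.3) with filterByExpr, TMM factors of 0.891 to 1.05 and Benjamini-Hochberg adjustment over 14406 genes. Each SE equals the absolute log2 fold change over the square root of its F statistic. Deviations of a library from the others used log2(CPM + 0.5), and length classes of other genes those with a mean of at least 5 CPM. Copies were found with blastn 2.17.0. Alternatives were RLE and upper-quartile factors, TMM without ribosomal protein and mitochondrial genes, no robust estimation, no filter, the replicate number as a block, DESeq2 1.42.0, limma-voom (limma 3.58.1) and each library left out. Adding copies, and members of at least 450 bases, were chosen after seeing the data. Named were the highest per kilobase in each subunit, the smallest p in each direction, paralogs, stalk genes, the largest and smallest spread and the lowest levels, and up to 3 genes of smallest p in other lists. Members and lists were chosen with earlier results of these data known. Other genes were chosen after their values were seen. Some genes that the naming rule covers are not reported here.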

Additional observations from a re-analysis of the deposited data

How the results depend on the processing

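DESeq2 called 1 member against 0 in the main test, and the other alternatives called 0. The count at an unadjusted p under 0.05 was 2 in the main test and 1 with the replicate number as a block. With single libraries left out it was 1 to 9 (9 without ACKR4_KO replicate 1). Beside these counts, 7.45% of all genes were under that limit in the main test and 12.5% without ACKR4_KO replicate 3. Shares of all genes in the other fits are not reported here, so the counts are not a result about the members. The labels do not say whether same-numbered libraries are paired. Deviations from the group mean correlated at 0.067, 0.053 and 0.125 between same-numbered libraries. Between libraries of unlike number they correlated at -0.121 to 0.063. Deviations from a mean of 3 libraries sum to 0 within a group, which centres these values on 0, so pairing cannot be decided from them. The block changed no other call. Leaving out single libraries turned the direction of the following log2 fold changes, given by their lowest and highest values: Rplp1 -0.026 to 0.045, Rps15 -0.042 to 0.062, Rps25 -0.0100 to 0.070, Rpl13 -0.081 to 0.016, Rpl22 -0.049 to 0.0050, Rpl24 -0.29 to 0.38, Rpl3 -0.20 to 0.027, Rplp0 -0.024 to 0.12, Rpl41 -0.14 to 0.51, Rps27 -0.16 to 0.95, Rps27l -0.081 to 0.41, Rpl39 -0.050 to 0.93, Rpl38 -0.072 to 1.59 and Rps29 -0.026 to 1.32. For 8 of the 30 named members other than Rpl3 and Rpl3l this happened without ACKR4_KO replicate 3. The Rpl3l to Rpl3 log2 ratio differed between genotypes by -0.0019 to 0.87 over the same fits, lowest without ACKR4_KO replicate 2. Upper-quartile factors turned Rplp1 (-0.00057) and Rps15 (-0.0046), and adding copies turned Rps10 (-0.074) and Rpl24 (0.21). Of 32 named members 17 kept their direction in all 15 alternatives. The cause was not tested. Each genotype had 3 libraries, and ACKR4_KO replicates 2 and 3 stood apart from the rest.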
